A study of Mus musculus with 8 samples.

Results

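Interferon-stimulated genes are the genes that cells switch on when they sense type I, II or III interferon. Here 39 of them are described in mouse liver with and without the microRNA miR-223. They were named from general knowledge of the response, with earlier results of these data known. Of the 39 listed genes, 37 had a probe in the authors' table, among 21180 named genes there, and Bst2 and Iigp1 were not analysed here. Expression was measured in 4 wild-type (WT) and 4 miR-223KO samples of liver. All 8 came from male mice on the C57BL/6J strain background that ate a high-fat diet for 3 months, so no group on another diet stands beside them. The labels call the knockout miR-223KO without naming the allele, and do not say whether it was limited to a cell type. Nor do they state that every sample is a different animal, and p-values here therefore reflect only the spread among the 8 samples.

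Interferons bind receptors on the cell surface, and the receptor-bound kinases JAK1 and TYK2 then phosphorylate STAT proteins. A STAT complex that holds STAT2 and IRF9 binds the interferon-stimulated response element (ISRE) in promoters, while STAT dimers formed above all after interferon gamma bind the gamma-activated site (GAS). The induced genes block viral entry, translation and replication, degrade RNA, mark proteins with ISG15 and feed back on the pathway itself. In the liver, hepatocytes, Kupffer cells, endothelial cells and infiltrating leukocytes can all make these transcripts. miR-223 is a microRNA abundant in neutrophils, monocytes and macrophages that pairs through its seed with messenger RNAs and lowers their output.

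The mature microRNA that the knockout is named for, encoded at chrX:96242884-96242905 (+ strand, RefSeq on GRCm38.p6), is printed with its seed, bases 2 to 8, in capitals.
mmu-miR-223-3p: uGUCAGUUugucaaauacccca
No tested probe measured miR-223, so these arrays did not check the knockout label. The comparison asked how liver transcripts differ when this microRNA is absent under a high-fat diet.

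The elements through which the members are known to answer interferon are shown by stretches of 6 promoters from RefSeq (GRCm38.p6), read on the gene's own strand from the 250 bases before the annotated start. They are Isg15 at chr4:156200855-156200916 (- strand), Ifit1 at chr19:34640765-34640833 (+ strand), Ifit3 at chr19:34583353-34583436 (+ strand), Rsad2 at chr12:26456543-26456592 (- strand), Gbp2 at chr3:142620584-142620633 (+ strand) and Irf1 at chr11:53769904-53769952 (+ strand). Capitals mark the ISRE letters, which are GAAA and GAAA with any 2 bases between them, or TTTC and TTTC in the same way where the element lies on the other strand. In Irf1 they mark the GAS letters, TTC and GAA with any 3 bases between them, which read the same on both strands. Neighbouring ISRE matches may overlap each other, as they do in Isg15.
Isg15: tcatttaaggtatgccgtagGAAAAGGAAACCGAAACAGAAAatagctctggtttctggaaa
Ifit1: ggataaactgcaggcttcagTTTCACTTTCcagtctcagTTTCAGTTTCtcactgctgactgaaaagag
Ifit3: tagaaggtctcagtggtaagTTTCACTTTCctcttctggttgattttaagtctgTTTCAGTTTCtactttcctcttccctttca
Rsad2: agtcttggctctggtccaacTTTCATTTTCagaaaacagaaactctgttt
Gbp2: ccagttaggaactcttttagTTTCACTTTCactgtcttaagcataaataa
Irf1: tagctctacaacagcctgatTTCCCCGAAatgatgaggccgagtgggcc
The ISRE letters stood in the 250 bases before a start of 11 of the 28 members that the promoter table holds (39.3%), against 3.46% of all 27025 genes in it. These were Gbp2, Gbp3, Ifit1, Ifit3, Igtp, Irgm1, Isg15, Oas1a, Oas1g, Rsad2 and Stat2. The GAS letters stood there in 6 members (21.4%), namely Eif2ak2, Ifit2, Igtp, Irf1, Irf8 and Oas1a, against 8.13% of all genes. A match is a description of the letters, not a site shown to bind.

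Each liver RNA was labelled with Cy5 and hybridised with an assorted mouse RNA in Cy3 as the common reference, so each value below is a log2 ratio of liver over reference after loess normalisation, and a difference is the mean of such ratios in miR-223KO minus that in WT. The ratios of different genes are not levels on one scale and are not ranked against each other. Between 49.5% and 69.8% of spots were well above background in Cy5, and a member's difference had a median standard error (SE) of 0.21 over 4 arrays a group, a number that limits the precision. In whole liver, fewer cells of a type and less RNA per cell cannot be told apart. Of 16750 features tested with limma, 2 passed an adjusted p of 0.05 (Benjamini-Hochberg over all features, 0.0119%), of which Ctse was higher (0.00597%) and Slco1a1 lower (0.00597%), and neither is a member. The mean log2 ratio of 5 tested hepatocyte markers lay above that of all features by 0.34 to 1.83 on the 8 arrays. That mean was carried by part of the list. The group means were 2.34 in WT and 1.68 in miR-223KO for Alb, but -0.17 and -0.26 for Hnf4a.

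Among the members, 34 were tested and none passed the adjusted p in either direction, with adjusted p-values of 0.613 to 0.998 (limma). The direction leaned upward: 25 of the 34 had a higher mean in miR-223KO and 9 a lower one, where 48.2% of all features had a higher mean. Their median difference was 0.14, beside -0.0096 over all features, and the differences ran from -0.28 for Usp18 to 1.41 for Ifi27l2b. At an unadjusted p of 0.05, which 4.67% of all features reached (2.31% higher and 2.36% lower), 5 members differed, all of them higher (Ifi27l2b, Gbp6, Trim25, Ifi35 and Dhx58). That count was 1 without miR-223KO replicate 1, 2 with either miR-223KO replicate 4 or WT replicate 3 left out, and 3 with miR-223KO replicate 3 or either of WT replicates 1 and 2 left out. It was also 3 under median centring, with only probes well above background on all 8 arrays, with the replicate block and with the eBayes trend. In 2 members, Ifi35 and Ifi44, every miR-223KO value stood above every WT value, where 1.64% of all features had this pattern, and no member had the reverse, where 1.44% of features did.

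**Figure D1:**
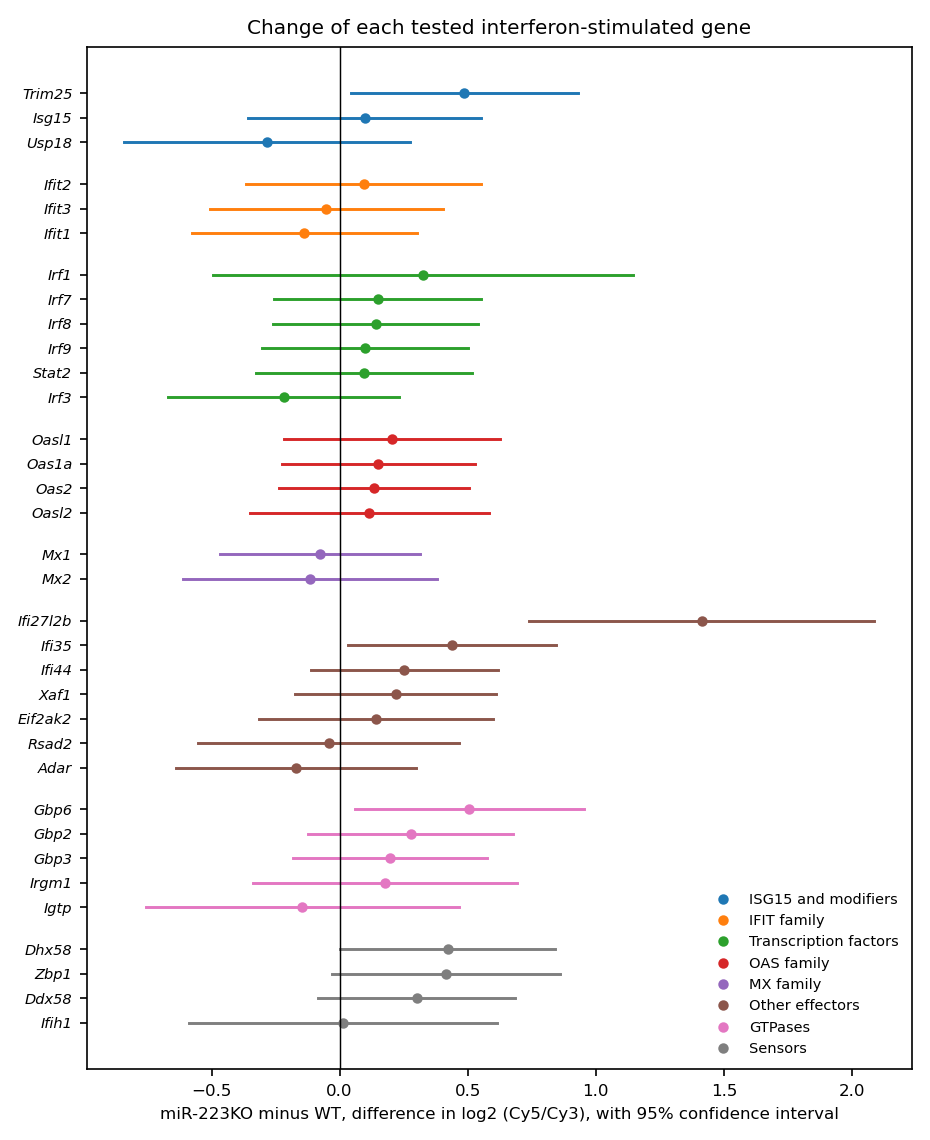
Difference between miR-223KO and WT in the log2 ratio of Cy5 over Cy3 (points) with 95% confidence intervals from limma (lines) for the 34 tested members, grouped and coloured by role. The intervals of Ifi27l2b, Gbp6, Trim25, Ifi35 and Dhx58 lie above 0, and all others include it.

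Ifi27l2b, a member of the interferon alpha-inducible protein 27 family of small hydrophobic proteins, had the largest difference of the 34. Its log2 ratios were -1.26, -0.95, -0.20 and -1.82 in WT and 0.84, -0.45, 0.35 and 0.68 in miR-223KO, each list running from replicate 1 to 4. Of the 4 miR-223KO values, 3 exceeded every WT value, and miR-223KO replicate 2 fell below WT replicate 3, so the groups overlapped. The difference was 1.41 with an SE of 0.32 and a 95% confidence interval of 0.74 to 2.09, a 2.66-fold higher mean in miR-223KO. Each of the 2 slides held 2 samples of each group, and within them the difference was 1.30 on slide 1 and 1.53 on slide 2. In the single channels, rebuilt after normalisation between arrays, the group difference was 1.48 in Cy5 and 0.066 in Cy3. The unadjusted p of 0.000415 became an adjusted p of 0.613 in limma, so the gene did not pass. Over the 22 alternatives of processing and of left-out arrays, its difference ran from 1.16, without WT replicate 4, to 1.70, without WT replicate 3, and its lowest adjusted p was 0.145.

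Relatives of this gene lie beside it, in the order Ifi27l2a, Ifi27 and Ifi27l2b on chromosome 12 in the RefSeq table. Ifi27, a mitochondrial and nuclear-envelope protein, had log2 ratios of -0.88, -0.71 and -0.18 in WT and -0.43, 0.96 and 0.22 in miR-223KO, with the flagged spots of WT replicate 4 and miR-223KO replicate 3 left out, and a difference of 0.84 (SE 0.32). It did not pass, with an adjusted p of 0.98 (limma), and was 0.49 without miR-223KO replicate 2. Ifi27l2a had log2 ratios of -0.59, -0.85, 0.37 and -0.099 in WT and 0.64, 0.47, -0.34 and 0.27 in miR-223KO and a difference of 0.55, or 1.28 on slide 1 and -0.17 on slide 2. The higher mean of Ifi27l2a in miR-223KO thus came from slide 1. The difference of Ifi27l2a was 0.29 with the mean of its probes. Probes of a gene family can take up each other's transcripts, and whether that happened here was not tested.

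The 3 genes of the ISG15 system had differences of mixed sign, and none passed the adjusted p. ISG15 is a ubiquitin-like protein that is joined to other proteins and also secreted, TRIM25 is an E3 ligase that adds ubiquitin or ISG15 and helps to activate the sensor RIG-I, and USP18 removes ISG15 and blocks the interferon receptor. Isg15 had log2 ratios of 0.20, 0.48, 0.45 and -0.19 in WT and 0.58, 0.075, 0.020 and 0.64 in miR-223KO. The highest and lowest of the 8 values stood in miR-223KO replicate 4 and WT replicate 4, with the groups mixed between them, and the difference of 0.097 had a 95% confidence interval of -0.36 to 0.55. The sign turned without WT replicate 4 (-0.044) and without miR-223KO replicate 4 (-0.0069), and leaving out any other single array gave 0.013 to 0.20. In the single channels, rebuilt after normalisation between arrays, the Isg15 mean was lower in miR-223KO in both, at -0.15 in Cy5 and -0.25 in Cy3.

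Trim25 gave log2 ratios of 0.23, 0.24, -0.59 and -0.086 in WT and 0.61, 0.20, 0.52 and 0.41 in miR-223KO. WT replicate 3 was the lowest of the 8, and without it the difference went from 0.49 (SE 0.21) to 0.31. A second probe of Trim25 differed by 0.26 in the same direction. Usp18 leaned the other way, with 0.97, 0.33, -0.057 and 0.0056 in WT and 0.52, -0.60, -0.031 and 0.24 in miR-223KO. Its highest value was WT replicate 1 and its lowest miR-223KO replicate 2, and the difference of -0.28 (SE 0.26) was -0.69 on slide 1 and 0.13 on slide 2. Without either of those samples it shrank, to -0.063 without WT replicate 1 and -0.070 without miR-223KO replicate 2, while it was -0.45 without miR-223KO replicate 1 and -0.15 under median centring.

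The IFIT proteins bind foreign RNA and hold back its translation, and their genes are among those most strongly induced by type I interferon. Ifit1 had log2 ratios of 0.19, 0.24, -0.084 and -0.25 in WT and -0.058, -0.35, -0.40 and 0.35 in miR-223KO. The groups overlapped throughout, and the difference of -0.14 had a 95% confidence interval of -0.58 to 0.30. Leaving out single arrays took it from -0.042, without miR-223KO replicate 3, to -0.29, without miR-223KO replicate 4. Ifit3 had log2 ratios of 0.30, 0.13, -0.18 and -0.60 in WT and 0.084, -0.33, -0.33 and 0.025 in miR-223KO, with its highest and its lowest value both in WT. Its difference was -0.052 (SE 0.21), and it turned positive, at 0.11, when arrays were only centred on their medians. Ifit2 had a difference of 0.094, and its second probe 0.26. None of the 3 separated the groups.

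Of the transcription factors that drive or shape the response, 5 of 6 tested had a higher mean in miR-223KO, with a median difference of 0.12 and no gene at an unadjusted p of 0.05. Irf7, the factor that amplifies type I interferon production, had log2 ratios of 0.17, -0.12, 0.091 and -0.42 in WT and 0.20, -0.073, 0.28 and -0.088 in miR-223KO, a difference of 0.15 (SE 0.19) that went to 0.032 without WT replicate 4. Stat2, a part of the ISRE-binding complex, had log2 ratios of 0.16, -0.38, -0.095 and -0.51 in WT and -0.34, 0.017, -0.25 and 0.13 in miR-223KO. The Stat2 difference of 0.094 was -0.053 on slide 1 and 0.24 on slide 2. Irf9, the part of that complex that contacts DNA, had log2 ratios of -0.39, 0.26, -0.048 and -0.33 in WT and -0.089, -0.11, 0.12 and -0.053 in miR-223KO and a difference of 0.098, with an SD of 0.11 in miR-223KO and 0.30 in WT. The Irf9 difference was 0.0098 without WT replicate 1, 0.23 without WT replicate 2, 0.031 without WT replicate 4 and 0.046 without miR-223KO replicate 3.

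Irf8, a factor of the myeloid lineage, differed by 0.14. Irf1, an early target of interferon gamma with the GAS printed above, had log2 ratios of -0.52, -0.25, 0.60 and -0.22 in WT and -0.019, -0.52, -0.28 and 1.75 in miR-223KO. Its difference of 0.33 held a single high sample, miR-223KO replicate 4, far above the other 7, and its second probe gave -0.23. Irf3, the constitutive factor activated downstream of the RNA and DNA sensors, had a difference of -0.22 on a probe that was not well above background on 2 of the WT arrays, with WT replicate 1 at 0.65 and the other 7 samples between -0.36 and -0.030. Another Irf3 probe was well above background on all 8 arrays but lost 3 WT values to flags. It gave 0.62, 0.85, 0.15 and 0.35 in miR-223KO, above the 0.12 of WT replicate 4, the only WT value left.

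The OAS enzymes make short oligoadenylates that activate RNase L, and all 4 tested members of the family had a higher mean in miR-223KO by small amounts, 0.12 to 0.21, with none at an unadjusted p of 0.05. Oas1a had log2 ratios of 0.40, 0.42, 0.38 and 0.069 in WT and 0.36, 0.30, 0.59 and 0.62 in miR-223KO. WT replicate 4 stood alone at the bottom, and the highest WT values exceeded the lowest miR-223KO values. The Oas1a difference of 0.15 (SE 0.18) came to -0.078 on slide 1 and 0.38 on slide 2, and was 0.069 without WT replicate 4, while the family as a whole had median differences of -0.052 and 0.32 on the 2 slides. Oas2 was well above background on 2 arrays of each group, and Oas1g on none of the 8 and was not tested.

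The MX proteins are dynamin-like GTPases that trap viral nucleocapsids, and Mx1 of C57BL/6 mice is known to carry an inactivating deletion, so its transcript does not stand for a working protein. Mx1 had log2 ratios of -0.020, 0.17, 0.39 and -0.085 in WT and 0.11, 0.12, -0.23 and 0.15 in miR-223KO. The lowest value was miR-223KO replicate 3, with the other values interleaved, and the difference was -0.075 (SE 0.18), or 0.16 under median centring. Mx2 differed by -0.11, with WT replicate 4 at 0.35 above the other 7 samples.

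**Figure D2:**
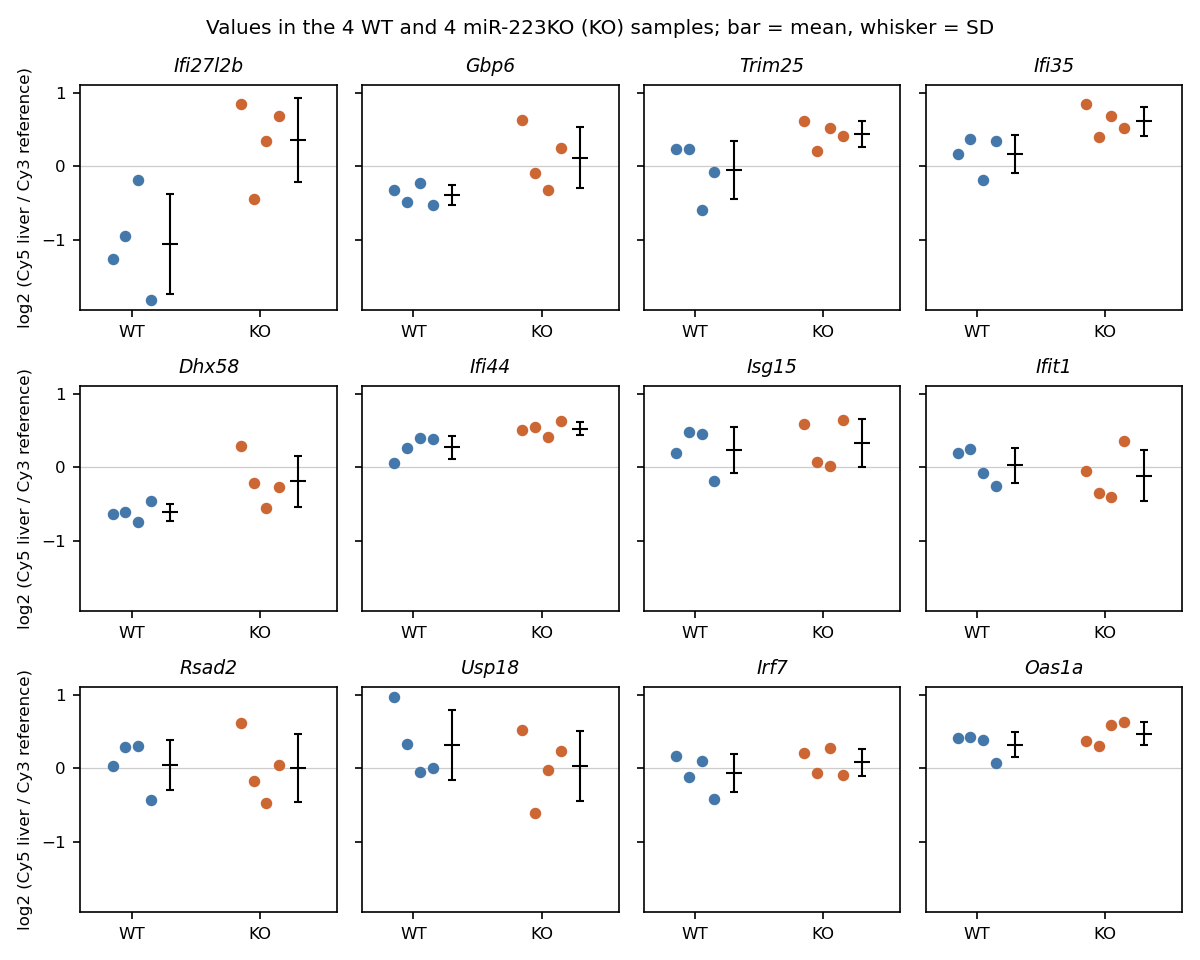
Log2 ratio of liver (Cy5) over reference (Cy3) of 12 members in the 4 WT (blue) and 4 miR-223KO (KO, orange) samples, with the group mean (bar) and SD (whisker). The groups are apart for Ifi35 and Ifi44, and 3 of 4 miR-223KO values of Ifi27l2b exceed all WT values, while the values of Isg15, Ifit1, Rsad2, Usp18 and Irf7 are mixed.

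The GTPases induced above all by interferon gamma act on the membranes around intracellular microbes. Of the 5 tested, Gbp6, Gbp2, Gbp3 and Irgm1 had higher means in miR-223KO and Igtp a lower one, with a median difference of 0.20. Gbp6, a guanylate-binding protein, had log2 ratios of -0.33, -0.49, -0.23 and -0.53 in WT and 0.63, -0.092, -0.33 and 0.25 in miR-223KO. The highest values were miR-223KO replicates 1 and 4, the lowest miR-223KO value lay within the WT range, and the difference was 0.51 (SE 0.21, limma unadjusted p 0.0292, adjusted p 0.98). Without miR-223KO replicate 1 it was 0.34, which is lower by more than 1.5 times.

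Gbp2 had log2 ratios of -0.34, 0.18, -0.29 and -0.092 in WT and 0.27, 0.14, -0.14 and 0.29 in miR-223KO, and its probe cleared the background by the scanner's call on 2 WT arrays and on every miR-223KO array. WT replicate 2 lay within the miR-223KO values, so the groups overlapped, and the difference was 0.28 (SE 0.19), or 0.61 with the scanner's processed log ratios. Gbp3 differed by 0.20 and Irgm1, a regulator of the other immunity-related GTPases, by 0.18, the latter -0.10 on slide 1 and 0.46 on slide 2. Igtp differed by -0.14 over 3 miR-223KO values, since the spot of miR-223KO replicate 1 was flagged and left out. Gbp4 was well above background on 3 arrays and was not tested.

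The nucleic acid sensors had the highest median of the 8 role groups, 0.36, with 4 of 4 higher in mean and 1 at an unadjusted p of 0.05. Dhx58 encodes LGP2, which binds viral RNA and tunes its relatives RIG-I and MDA5. Its log2 ratios were -0.64, -0.61, -0.74 and -0.46 in WT and 0.28, -0.22, -0.55 and -0.27 in miR-223KO. miR-223KO replicate 3 fell within the WT range and the other 3 miR-223KO samples above it, and the difference was 0.42 (SE 0.20, limma unadjusted p 0.0489, adjusted p 0.98). Without miR-223KO replicate 1 it was 0.26. It was split between the channels, at 0.22 in Cy5 and -0.21 in Cy3.

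Zbp1, a sensor of left-handed nucleic acids that can start necroptosis, had log2 ratios of -0.62, -0.45, -0.092 and -0.070 in WT and 0.45, -0.31, 0.011 and 0.28 in miR-223KO. The highest values were miR-223KO replicates 1 and 4, and miR-223KO replicate 2 lay among the WT samples, with a difference of 0.41 (SE 0.21), or 0.78 with the scanner's processed log ratios. Ddx58, which encodes RIG-I, had log2 ratios of -0.53, -0.81, -0.55 and -0.42 in WT and -0.055, -0.53, -0.25 and -0.28 in miR-223KO on its brightest probe. That difference of 0.30 was not shared by the other 3 measured probes of the gene, whose differences ran from -0.33 to 0.09, and the mean of its probes gave 0.034. Ifih1, which encodes MDA5, differed by 0.013 on its brightest probe and by -0.35 on another.

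The other antiviral effectors included both members whose groups did not overlap. Ifi35, a leucine-zipper protein that pairs with NMI, had log2 ratios of 0.16, 0.37, -0.19 and 0.35 in WT and 0.84, 0.40, 0.68 and 0.52 in miR-223KO. Its lowest miR-223KO value exceeded its highest WT value by a narrow margin, and the difference was 0.44 (SE 0.19, limma unadjusted p 0.0353, adjusted p 0.98), 0.36 on slide 1 and 0.52 on slide 2. The rebuilt channels held 0.24 in Cy5 and -0.20 in Cy3, a split that depends on the normalisation between arrays. Ifi44, a cytoplasmic protein of the antiviral response, had log2 ratios of 0.055, 0.26, 0.39 and 0.38 in WT and 0.51, 0.55, 0.41 and 0.62 in miR-223KO. Its groups were apart, with a difference of 0.25, but the rebuilt channels showed -0.13 in Cy5 and -0.38 in Cy3, neither of them higher in miR-223KO. Such a split depends on the normalisation between arrays, so it cannot say which channel a ratio's difference came from.

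Xaf1, which promotes apoptosis by opposing XIAP, had log2 ratios of -0.19, -0.55, -0.48 and -0.091 in WT and 0.075, -0.28, 0.020 and -0.25 in miR-223KO and a difference of 0.22 (SE 0.19), with 2 miR-223KO values among the WT values. Eif2ak2 encodes PKR, the kinase that stops translation on sensing double-stranded RNA, and had log2 ratios of 0.23, 0.12, -0.53 and 0.088 in WT and 0.29, -0.22, 0.44 and -0.041 in miR-223KO. WT replicate 3 was its lowest sample, on 2 WT arrays its probe was not well above background, and the difference was 0.14 (SE 0.21). Rsad2 encodes viperin, which makes a chain-terminating nucleotide, and had log2 ratios of 0.029, 0.29, 0.29 and -0.43 in WT and 0.62, -0.18, -0.47 and 0.042 in miR-223KO. The miR-223KO samples held both its highest and its lowest value, and the difference of -0.042 (SE 0.24) was lower still on its other probes, at -0.18 and -0.28. Adar, which edits adenosine to inosine in double-stranded RNA, differed by -0.17, with miR-223KO replicate 3 at -0.20 below the other 7 samples. Cmpk2, a mitochondrial nucleotide kinase that lies next to Rsad2, had no probe well above background on more than 3 arrays and was not tested.

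Of the 34 tested members, 27 were well above background on all 8 arrays, and 6 of the other 7 were so on fewer WT than miR-223KO arrays. The share of all features that were so on fewer WT arrays was not computed. With only probes well above background on all 8 arrays, 19 of the 27 had a higher mean in miR-223KO. Their median difference was 0.14. A set of 10 of the 34 tested members had a further measured probe, and for 3 of them (Ddx58, Ifih1 and Irf1) a probe went in the other direction. In 13 of the 34 the rebuilt group difference was larger in size in Cy3 than in Cy5, and the share of all features with this pattern was not computed. Within slides, 16 members had a higher miR-223KO mean on both slides (21.6% of all features did), 3 a lower one on both (23.6% of features), and 15 took opposite signs. The median difference of the members was 0.074 on slide 1 and 0.21 on slide 2. In only 1 member, Ifi27l2b, did the difference exceed 1.5-fold, where 98.2% of all features stayed under it.

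**Figure D3:**
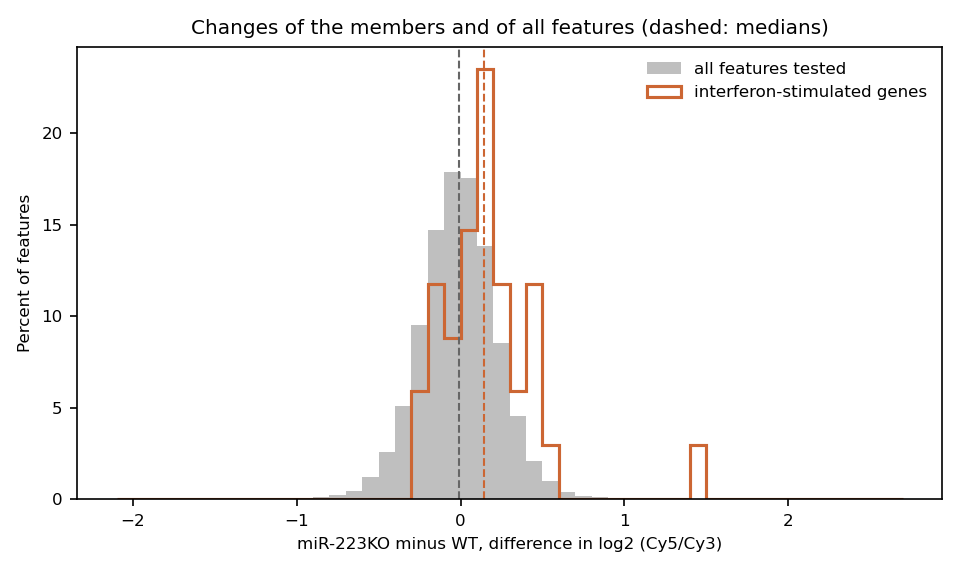
Percent of features in bins of the miR-223KO minus WT difference in log2 ratio, for all 16750 features tested (grey) and the 34 tested members (orange line), with their medians dashed. The members' median lies at 0.14 against -0.0096, and the member at the far right is Ifi27l2b.

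Array by array, the members were high on part of the miR-223KO arrays and not on all of them. The mean log2 ratio of the 34 members minus that of all features was -0.044, -0.052, -0.18 and -0.27 in WT and 0.23, -0.11, -0.088 and 0.14 in miR-223KO. Replicates 2 and 3 of miR-223KO lay within the WT range and replicates 1 and 4 above it, with group means of -0.14 ± 0.11 (SD, n = 4) and 0.042 ± 0.17 (SD, n = 4). Of the 34 members, 10 had their highest value in miR-223KO replicate 1 (10.5% of all features did) and 9 in replicate 4 (12.2% of all features), while 9 had their lowest in WT replicate 4 (12.2% of all features). The 3 arrays with the lowest member means relative to all features were WT replicates 4 and 3 and miR-223KO replicate 2. They also had the lowest shares of spots well above background in Cy5, at 49.5%, 53.1% and 53.0%, against 63.5% to 69.8% on the others. Without subtracting all features, the member mean of miR-223KO replicate 3 (-0.068) lay below that of replicate 2 (-0.058). The part of these shares in the result was not tested. Without WT replicate 4, the median difference of the members was 0.088, with 22 of 34 higher.

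**Figure D4:**
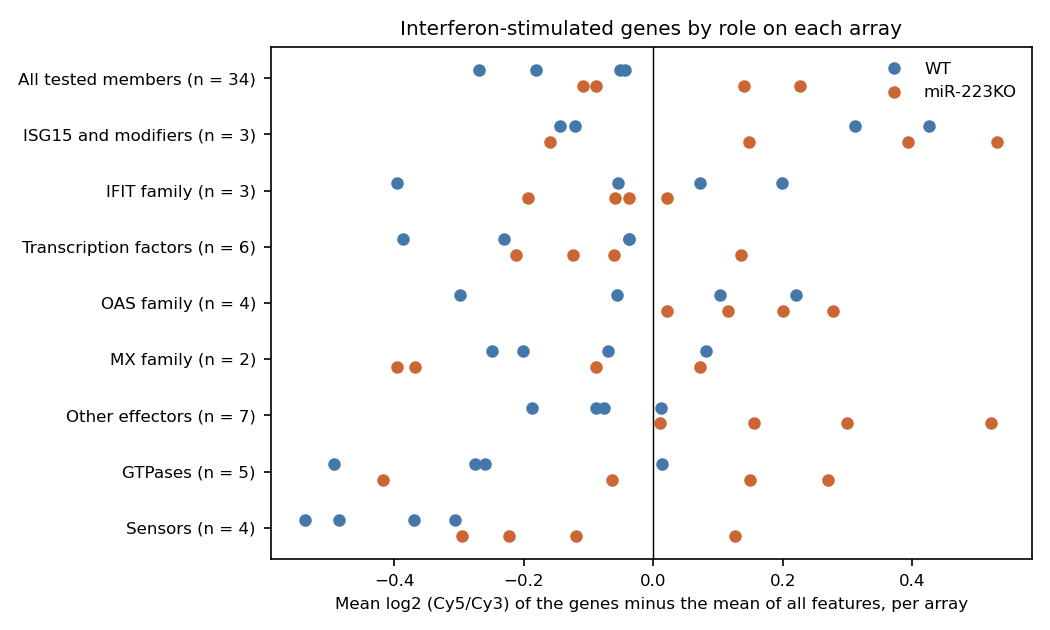
Mean log2 ratio of the members of each role minus the mean of all features on the same array, for the 4 WT (blue) and 4 miR-223KO (orange) arrays, with the number of genes in brackets. The WT and miR-223KO points overlap for all members as 1 set and in most roles. In the sensors the lowest miR-223KO point, -0.29, lies just above the highest WT point, -0.31. These points use the brightest probe of each of the 4 genes. Other probes of Ddx58 differed by -0.33 to 0.09 and another of Ifih1 by -0.35, and the points were not redrawn with them.

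Members with the ISRE letters near their start did not have a larger median difference than those without. Of 10 tested members with the letters, 6 had a higher mean in miR-223KO, with a median difference of 0.095 and a highest value of 0.28. Of 16 tested members whose listed promoters lacked them, 14 had a higher mean, with a median of 0.15. The letters are an exact pattern in a short window, and members without them may hold the element elsewhere or in another form. Whether the element had a part in the differences was not tested by this split. Isg15, Ifit1, Ifit3, Rsad2 and Gbp2, whose ISRE letters are printed above, had differences of 0.097, -0.14, -0.052, -0.042 and 0.28. Ifi27l2b, which differed most, was among the 9 members with a probe that the promoter table did not match.

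The rest of the interferon pathway was read from a list of 116 further genes, of which 87 were tested. None passed the adjusted p (limma). At an unadjusted p of 0.05, 4 were higher and 3 lower, where 2.31% and 2.36% of all features were. A higher mean in miR-223KO was found in 50 of 87 (57.5%), where 48.2% of all features had one, and the median difference was 0.062. Of the ligands, 7 of 19 were tested and 6 of those had a lower mean. The single probe of Ifnb1 and both probes of Ifng were above background on no more than 2 arrays, and neither gene was tested.

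None of the receptors and kinases reached an unadjusted p of 0.05. Ifnar1 and Ifnar2, the chains of the type I interferon receptor, differed by -0.042 (SE 0.22) and -0.36 (SE 0.20). The Ifnar2 value was -0.13 with the mean of its probes and -0.19 under median centring. Ifngr1, the ligand-binding chain for interferon gamma, differed by 0.24 (SE 0.24), with 0.13 without WT replicate 1, 0.15 without miR-223KO replicate 1 or replicate 4 and 0.50 without miR-223KO replicate 3. Socs1, the feedback inhibitor of JAK signalling, differed by -0.15 (SE 0.20), with -0.019, -0.098 and -0.31 without miR-223KO replicates 3, 4 and 2. It was -0.45 with the scanner's processed log ratios.

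Among the pathway genes with the smallest p-values after Ifi27 were induced genes of several kinds. Ifi47, an immunity-related GTPase, differed by 0.54, Tdrd7 by 0.48 and Lgals3bp, a secreted glycoprotein that binds galectin, by 0.47. Lgals9, which encodes galectin-9, differed by -0.59, and Ifi203, of the family of DNA-binding p200 proteins, by -0.38. Lgals9 was -0.37 without miR-223KO replicate 2 and -0.30 under median centring, and Ifi203 was -0.22 under median centring or with the mean of its probes. Lgals3bp was 0.29 with the scanner's processed log ratios and 0.93 under median centring. All of these had an adjusted p of 0.98 (limma). Among these genes the groups were apart for Tdrd7 and Lgals3bp, both higher in miR-223KO, and for Ifi203, lower in miR-223KO, with Lgals3bp over 3 values in each group. With Ifi204, also higher, 3 of the 87 tested pathway genes were apart upward and 1 downward, where 1.64% and 1.44% of all features were.

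Markers of cells that make or answer interferon were read on the same arrays. All 6 tested monocyte or macrophage markers of 7 listed had a higher mean in miR-223KO, with a median difference of 0.41. Their mean relative to all features ran from -0.55 to 0.17 in WT and from -0.042 to 0.72 in miR-223KO. The top value stood on miR-223KO replicate 1, the array on which the members were highest too. Other arrays did not match: miR-223KO replicate 4, next highest for the members (0.14), held the lowest miR-223KO value of these markers. WT replicate 3 held their highest WT value, with the members at -0.18. Of 6 tested Kupffer cell markers of 7 listed, 5 had a higher mean (median 0.20), with a range of -0.44 to 0.62 in WT and -0.23 to 0.35 in miR-223KO. Csf1r, the receptor that sustains macrophages, differed by 0.54 and was apart between the groups, as 1.64% of all features were in that direction. Trem2, a receptor of lipid-laden macrophages, differed by 0.57, and both genes had an adjusted p of 0.98 (limma). The 5 hepatocyte markers tested of 7 listed had a lower mean in miR-223KO (median -0.22), ranging from 0.71 to 1.83 in WT, the top value on WT replicate 4, and from 0.34 to 0.79 in miR-223KO. The plasmacytoid dendritic cell markers Siglech and Spib were well above background on 0 of 8 arrays, and 1 of the 3 tested markers of that list had a higher mean. Of 5 tested neutrophil markers of 8 listed, 2 had a higher mean (median -0.041). S100a9 differed by 0.61, on a probe well above background on 2 WT and 4 miR-223KO arrays. Ngp differed by 0.074, Mpo by -0.041, Retnlg by -0.051 and Camp by -0.12. Of the other lists, 0 of 4 conventional dendritic cell markers had a higher mean (median -0.19), 4 of 7 T or NK cell markers (median 0.011), 2 of 4 B cell markers (median -0.037), 5 of 7 endothelial markers (median 0.14), 2 of 6 stellate cell markers (median -0.040) and 1 of 5 cholangiocyte markers (median -0.20). Ncr1, a receptor of NK cells, differed by -0.40, with an adjusted p of 0.98 (limma). Every miR-223KO value of Ncr1 lay below every WT value, as in 1.44% of all features. Nkg7 and Klrb1c of the same list differed by 0.22 and 0.011. The part of these cells in the members' differences was not tested.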

How the data were processed

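The 8 two-colour Agilent arrays (design 014868) were read by Feature Extraction 12.0.3.1 (protocol GE2_1200_Jun14; grid of build mm9), per the file headers. The deposited scanner files give spot and background intensity, and a LogRatio in log10 of processed Cy5 over Cy3, per the file headers. The authors' deposited table gives log2 ratios, a log2 fold change and a signed fold per probe. Median signals were background-corrected (normexp, offset 50) and loess-normalised within arrays in limma 3.58.1 under R 4.3.3. Outlier-flagged spots were left out and spots of a probe averaged. A probe entered the test with Cy5 well above background on 4 or more of the 8 arrays and 3 values per group, and the brightest probe stood for its gene. The two-sided tests of miR-223KO against WT came from limma's lmFit and eBayes, and p-values were adjusted by Benjamini-Hochberg over 16750 features at a threshold of 0.05. Channel differences were rebuilt after Aquantile normalisation, on which their split depends. In a simulated run with independent normal noise, 100 features were changed by a log2 of 2 and another 100 by 1. Of these, 100% and 56% were recovered, with 12 false calls in the run. The adjusted p depends on how many features change, and far more passed there than the 2 in the real data. These rates therefore do not give the power of the real comparison.

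The members and the other gene lists were chosen with earlier results of these data known. Values in every sample were to be given for the 10 members with the smallest p and for Isg15, Ifit1, Ifit3, Irf7, Stat2, Irf9, Usp18, Oas1a, Mx1, Rsad2, Gbp2 and Eif2ak2, and of the pathway genes, those with the 8 smallest p-values and Ifnar1, Ifnar2, Ifngr1 and Socs1 were to be named, some of which are not reported here. Irf1, Irf3, Adar, Mx2, Csf1r, Trem2, S100a9 and Ncr1 were given after their values were seen. The 22 alternatives are described in the closing section. Replicate numbers did not pair the samples, with correlations of -0.027 to 0.058 between same-numbered arrays.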

Additional observations from a re-analysis of the deposited data

Results flagged for a closer look

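Single samples stood apart from the other 3 of their group in 5 of 67 member-by-group sets, where chance gives about 1 in 20. Irf3 was at 0.65 in WT replicate 1, above the other WT samples. Oas1a was at 0.069 and Mx2 at 0.35 in WT replicate 4, the one below and the other above the rest of WT. Mx1 was at -0.23 and Adar at -0.20 in miR-223KO replicate 3, both below the rest of miR-223KO. All of these are log2 ratios of liver over reference.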

How the results depend on the processing

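No member and no other pathway gene passed the adjusted p under any of the 22 alternatives (limma). The count over all features was 2, and it was 4 with a normexp offset of 16 and 1 each with the scanner's processed log ratios, median centring, the authors' deposited table, outlier-flagged spots kept and the mean of a gene's probes, and the cause was not tested. The members' median difference stayed above 0, from 0.088 without WT replicate 4 to 0.27 with the scanner's processed log ratios or the authors' table. It was 0.26 under median centring, where the median of all features was 0.081. With the replicate block, 2 features and 0 members passed, 810 features had an unadjusted p under 0.05 and the members' median was 0.14. Of 34 genes checked, 27 never changed sign. Ifit3 turned to 0.044 with the scanner's processed log ratios, 0.11 under median centring and 0.044 in the authors' table. Ifnar1 turned to 0.12 under median centring and 0.033 with array weights, Mx1 to 0.16 under median centring, and Rsad2 to 0.043 and 0.0024 under the same pair of settings as Ifnar1. With single arrays left out, the ranges crossed 0 for Ifit3 (-0.22 to 0.076), Ifnar1 (-0.14 to 0.12), Isg15 (-0.044 to 0.20), Mx1 (-0.14 to 0.016), Rsad2 (-0.25 to 0.12), Stat2 (-0.0071 to 0.22) and Eif2ak2 (-0.027 to 0.25). The cause was not tested. With 4 arrays a group, a member's median SE was 0.21, and signal at background kept Cmpk2, Gbp4 and Oas1g out of the test.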
